A study of Mus musculus with 6 samples.

Results

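Interleukins are secreted signals that leukocytes, tubule cells and stromal cells use to start, restrain and end inflammation. Each one binds a set of receptor chains, many of which are shared between several interleukins. The chains signal mainly through NF-kappaB in the IL-1 family (by way of MyD88) and in the IL-17 family. In most of the others they signal through JAK kinases and STAT factors. In the injured kidney they are known for linking damaged tubules to infiltrating leukocytes and to fibroblasts. The genes described here are the 62 of 19176 in the deposited expression table whose symbol starts with Il and a digit. They were sorted by role into 24 ligands, 35 receptor chains and 3 genes that are neither, namely Il18bp, Il4i1 and Il1bos. Some interleukin genes, such as Il17a, Il17f, Il22, Il5 and Il13, were not analysed here.

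The libraries came from renal cortex of male wild-type C57BL/6J mice aged 8 weeks, in which blood flow to the left kidney had been stopped for 35 min with a clamp (unilateral ischemia-reperfusion injury, UIRI). All mice lost the right kidney the day before tissue collection on day 14. The UIRI group (n = 3) received vehicle, 5% ethanol in saline, by daily intraperitoneal injection, and the UIRI + BA group (n = 3) received bruceine A (BA), a plant quassinoid that the labels spell brucine A, at 1 mg/kg. The kidneys are mixed tissue in which tubular, interstitial and blood-derived cells are read together, and sham kidneys were not analysed here.

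Recovered reads on genes numbered 16510720 to 38124164 per library, and the deepest library, UIRI replicate 3, held 2.04 times the median of the other 5. Values below are normalized counts (reads divided by a size factor per library), and log2 fold changes give UIRI + BA over UIRI on the scale of log2 of the value plus 1. All 15 proximal tubule markers on the list were measured. All 15 were higher with BA, 14 with an unadjusted p below 0.05 (limma), where 10.3% of all genes had one. Summed levels were 75677 to 101471 in UIRI and 111546 to 175445 in UIRI + BA. Markers of leukocytes and stroma moved as well. Neutrophil markers were lower in 5 of 5 measured (summed levels 1268 to 1758 in UIRI and 1053 to 1174 in UIRI + BA), with Ly6g, Camp, Ngp and Mmp8 not analysed. Macrophage markers were lower in 11 of 12 (91456 to 132045 and 87816 to 101658) and fibroblast markers in 10 of 10 (115689 to 134342 and 84564 to 107653). Urothelium markers were lower in 10 of 10 (856 to 1654 and 576 to 1015). An unadjusted p below 0.05 was found for 3 neutrophil, 3 macrophage, 6 fibroblast and 1 urothelium markers. The part of any of these cell types in the interleukin results was not tested. In bulk tissue fewer cells of a type cannot be told apart from less RNA per cell.

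The genes differed widely in level. Per kilobase of exon (GENCODE release M21, all transcripts merged), the highest mean over the 6 libraries was that of Il33, 877 normalized counts per kb, with single libraries from 763 to 1007. Il33 is a nuclear alarmin released by damaged cells. Il34, a ligand of the CSF-1 receptor made by tubule cells, had 778 per kb with libraries from 629 to 875, so these leading ligands overlapped. After them came Il1f6, the gene of IL-36 alpha, with 315 per kb, Il1b with 265 and Il18 with 200. Among receptor chains the highest were Il13ra1 (771 per kb, libraries from 677 to 889) and Il6st, which encodes gp130 (708 per kb, libraries from 658 to 765), and these overlapped too. Il10ra (502 per kb) and Il10rb (461 per kb), the chains of the IL-10 receptor, came next, whereas Il10 itself had 5.23 per kb and 4 to 11 reads per library.

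**Figure D1:**
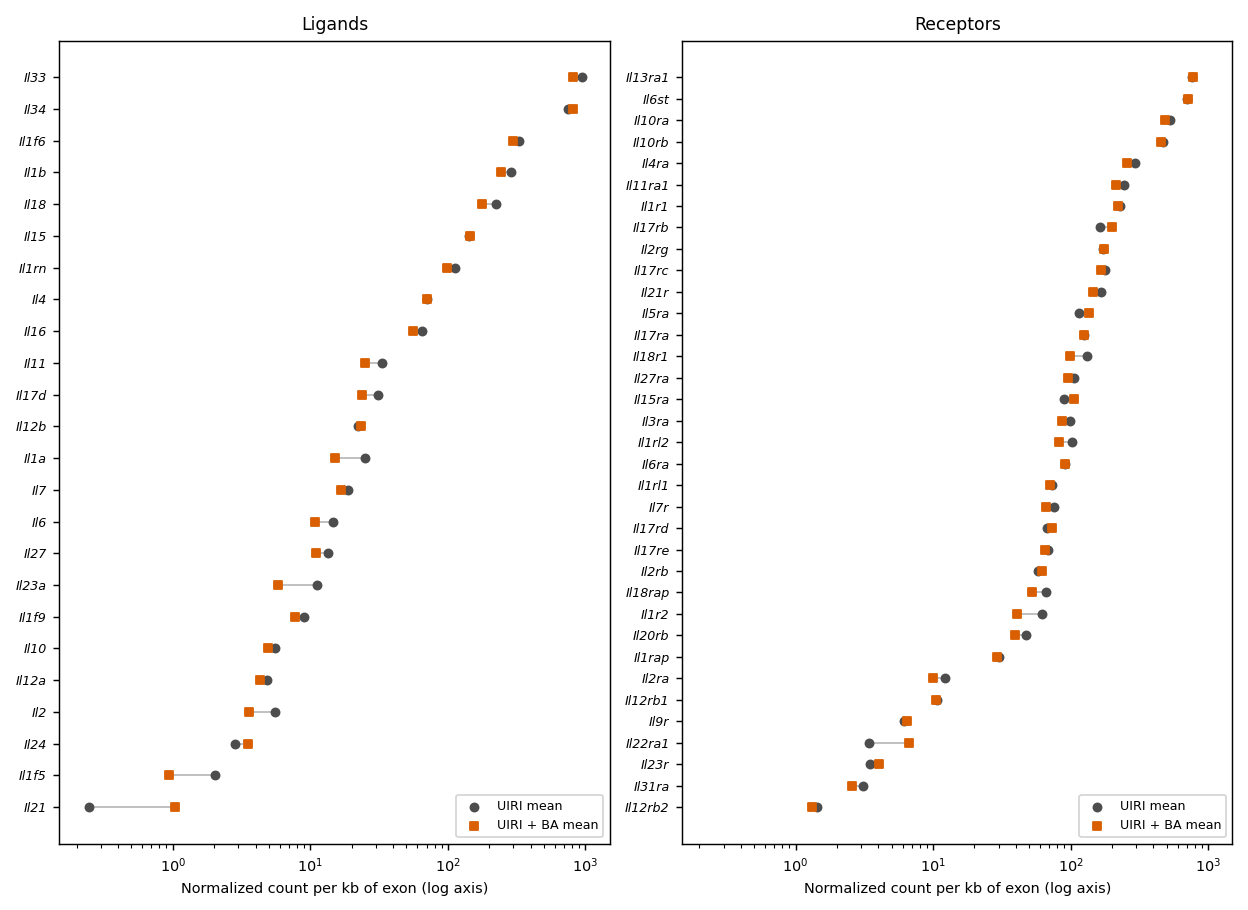
Mean normalized count per kb of exon, on a log axis, for the 24 ligands (left) and 35 receptor chains (right), with UIRI means as grey circles and UIRI + BA means as orange squares (n = 3 each). Il33 and Il34 lead the ligands and Il13ra1 and Il6st the receptors, and the lowest genes, such as Il21, rest on few reads.

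Counting error was small for most of these genes and large for a few. A mean normalized count of at least 10 was found for 53 of the 62, and 37 had at least 100. Reads over the 6 libraries ran from 20 (Il21) to 49813 (Il6st). In Il21, Il24 and Il1f5 a library held 0 reads, which allows up to 3 reads for counting error alone, and the fold changes of these genes are not determined. Il21, a helper T cell cytokine, had 2, 0 and 3 reads in UIRI against 2, 11 and 2 with BA, and its log2 fold change of 1.34 became 0.68 without UIRI + BA replicate 2. Il1f5, the IL-36 receptor antagonist, had 11, 8 and 11 reads in UIRI against 6, 0 and 5 with BA. Without UIRI + BA replicate 2 its log2 fold change of -1.39 became -0.43.

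The main question was which interleukin signals differ between injured kidneys with and without BA. With Benjamini-Hochberg adjustment over the whole table, limma's test gave no interleukin gene an adjusted p below 0.05, nor any other gene (0% of 19176 called). At an unadjusted p below 0.05 stood 3 of 24 ligands (12.5%) and 7 of 35 receptors (20%), where 10.3% of all genes did. All 3 ligands (Il33, Il1a and Il23a) were lower with BA. Of the receptors, Il18r1, Il1r2, Il18rap and Il1rl2 were lower and Il17rb, Il15ra and Il22ra1 higher. Lower calls made up 4.61% and higher calls 5.67% of all genes. The median log2 fold change was -0.21 for ligands and -0.06 for receptors, against -0.0053 for all genes. Without UIRI + BA replicate 2 the receptor median was -0.13. With edgeR's quasi-likelihood test on recovered reads, the same 3 ligands and 7 receptors had an unadjusted p below 0.05, 9.93% of all genes did, and no gene (0%) had an adjusted p below 0.05. DESeq2 on those reads gave 2 ligands and 5 receptors an unadjusted p below 0.05 (7.88% of all genes), and 1 interleukin gene, Il18r1, an adjusted p below 0.05 (1.49% of the genes given one). When UIRI replicate 3 was left out, 13 receptors in place of 7 had an unadjusted p below 0.05 (25.2% of all genes), and Il18r1 alone an adjusted one (5.02% of all genes). Leaving out UIRI replicate 1 reduced the ligands from 3 to 1 (4.21% of all genes), and leaving out UIRI + BA replicate 3 reduced them to 0 (8.41% of all genes).

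**Figure D2:**
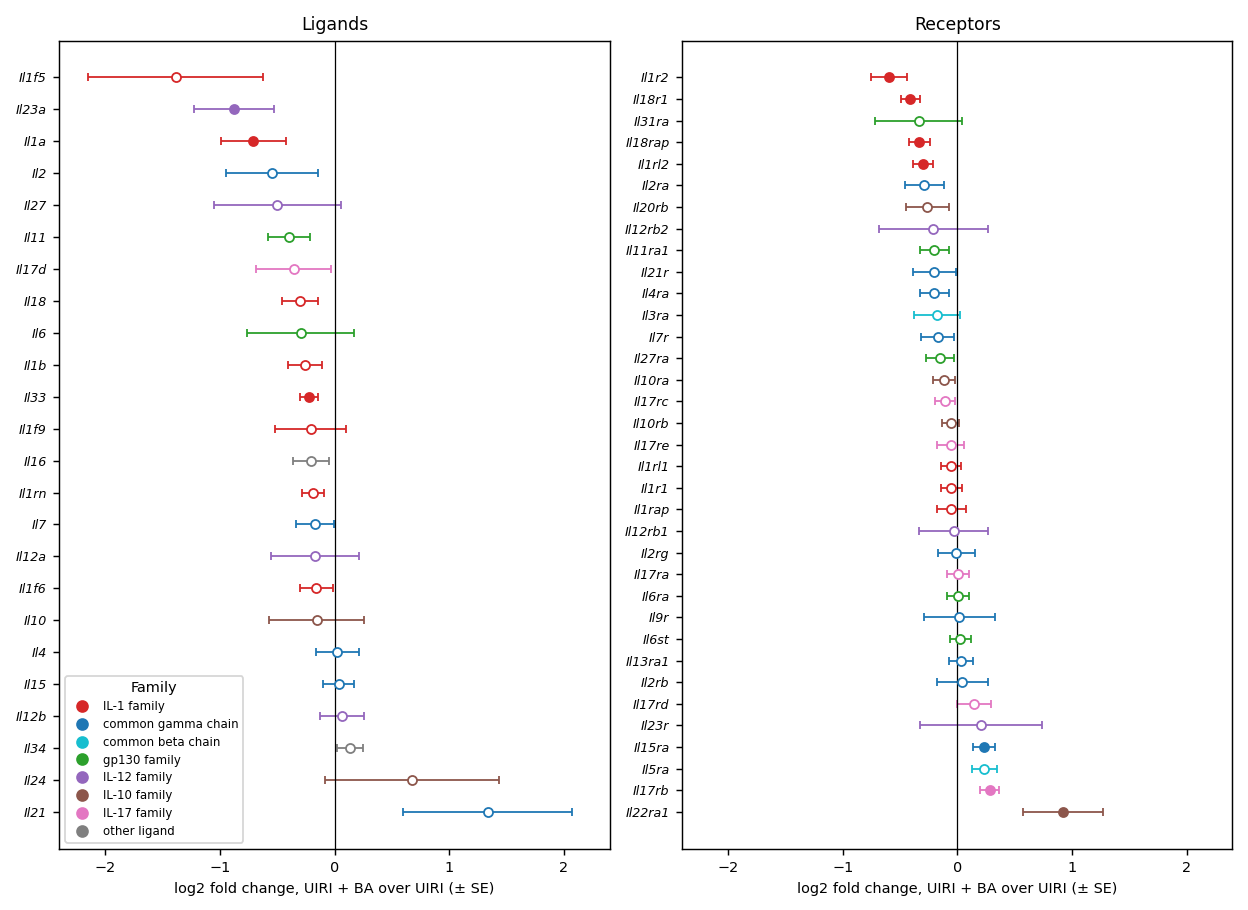
Log2 fold change of UIRI + BA over UIRI with its standard error for each ligand (left) and receptor chain (right), colored by cytokine family, with filled points at an unadjusted p below 0.05 (limma). All red points of the IL-1 family lie left of 0, from -1.39 to -0.05. The lowest, Il1f5, had a library with 0 reads, and its fold change is not determined.

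The most uniform family was that of IL-1. All 15 of its ligand and receptor genes in this set had lower means with BA, among them Il1f5, for which a library held 0 reads. Their median log2 fold change was -0.26, and 6 of the 15 (40%) had an unadjusted p below 0.05, where 10.3% of all genes did. Il18bp, grouped here with this family for its binding of IL-18 but neither ligand nor receptor, was higher (0.14, SE 0.11). Sigirr, a receptor of this family whose symbol lies outside the naming rule, was also higher (0.15, SE 0.10) and is not counted here. Of the 44 ligand and receptor genes of other families, 26 were lower and 18 higher (median -0.08), and 4 (9.09%) had such a p. Among all genes 9793 were lower and 9383 higher. The 15 genes kept their direction with quantile normalization, upper quartile scaling and DESeq2, and for edgeR in the 14 it tested. With a library left out, the 8 ligands stayed lower in all 6 fits and the 7 receptors in 3 of them. In the other fits 1 receptor turned, Il1rap when UIRI replicate 1 or UIRI + BA replicate 2 was left out, and Il1r1 when UIRI replicate 3 was.

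Of the 7 IL-1 family receptors in the set, 6 lie side by side on the plus strand of chromosome 1. In GENCODE release M21 (build GRCm38) they span 40074079 to 40551705, a stretch of 477.6 kb, in the order Il1r2, Il1r1, Il1rl2, Il1rl1, Il18r1 and Il18rap. Symbols alone tie these positions to the measured genes, since no build is named for the counts. Along this order the first, the third, the fifth and the sixth had an unadjusted p below 0.05 and the second and the fourth did not, and 136 bases separate Il1rl1 from Il18r1. The 250 bases before each RefSeq start (GRCm38.p6, plus strand) are shown so that the control regions of these neighbors can be read side by side. For genes with several listed starts, the most upstream was taken, and GENCODE starts Il1r2 further upstream than RefSeq does. Capitals mark matches, on either strand, to 6 motifs: TATAAA (the TATA box), the CCAAT box spelled by its name, TGANTCA (AP-1), TTCNNNGAA (STAT), the IRF motif made of GAAA, any 2 bases and again GAAA, and the NF-kappaB form made of GGG, any 2 bases and TTTCC.
Il1r2 (chr1:40085843-40086092): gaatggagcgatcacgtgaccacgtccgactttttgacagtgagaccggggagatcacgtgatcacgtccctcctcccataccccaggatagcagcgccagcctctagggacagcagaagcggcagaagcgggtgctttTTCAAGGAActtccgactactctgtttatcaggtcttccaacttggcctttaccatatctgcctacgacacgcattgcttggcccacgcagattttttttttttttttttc
Il1r1 (chr1:40224830-40225079): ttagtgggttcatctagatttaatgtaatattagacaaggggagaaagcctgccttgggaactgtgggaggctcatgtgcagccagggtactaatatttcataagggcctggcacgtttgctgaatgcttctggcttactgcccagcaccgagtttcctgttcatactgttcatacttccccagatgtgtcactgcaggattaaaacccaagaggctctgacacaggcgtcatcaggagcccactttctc
Il1rl2 (chr1:40324339-40324588): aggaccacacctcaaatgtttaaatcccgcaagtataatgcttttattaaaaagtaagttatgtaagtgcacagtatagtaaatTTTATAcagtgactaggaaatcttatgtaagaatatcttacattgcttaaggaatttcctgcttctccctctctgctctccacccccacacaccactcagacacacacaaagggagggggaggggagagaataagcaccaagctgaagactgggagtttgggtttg
Il1rl1 (chr1:40429320-40429569): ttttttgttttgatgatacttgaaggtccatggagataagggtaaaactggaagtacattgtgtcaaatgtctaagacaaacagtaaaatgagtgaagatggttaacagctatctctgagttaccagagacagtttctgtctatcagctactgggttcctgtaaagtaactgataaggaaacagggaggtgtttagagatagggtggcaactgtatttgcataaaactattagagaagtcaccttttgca
Il18r1 (chr1:40465302-40465551): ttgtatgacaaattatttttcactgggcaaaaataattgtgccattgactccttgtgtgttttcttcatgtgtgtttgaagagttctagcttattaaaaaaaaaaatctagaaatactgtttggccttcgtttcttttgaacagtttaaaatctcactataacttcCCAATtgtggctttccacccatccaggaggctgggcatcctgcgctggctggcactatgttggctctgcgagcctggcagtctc
Il18rap (chr1:40515112-40515361): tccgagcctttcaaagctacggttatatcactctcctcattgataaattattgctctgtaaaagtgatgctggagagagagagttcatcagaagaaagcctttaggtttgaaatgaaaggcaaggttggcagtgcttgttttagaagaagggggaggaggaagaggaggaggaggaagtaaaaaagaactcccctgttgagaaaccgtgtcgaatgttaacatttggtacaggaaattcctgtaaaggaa
In these windows Il1r2 held a STAT match from 111 to 103 bases before the start, Il1rl2 a TATA box on the other strand and Il18r1 a CCAAT box, and no match to the other motifs was present in these letters. None of the matches overlapped. Of 32536 promoter windows of the same length in the RefSeq table, 7.04% held the STAT motif, 12.3% the TATA box, 33.8% CCAAT, 6.73% the AP-1 motif, 2.98% the IRF motif and 1.40% the NF-kappaB form.

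Il18r1 encodes the binding chain of the IL-18 receptor. Its normalized counts were 639, 603 and 666 in UIRI against 471, 479 and 484 with BA. All UIRI + BA libraries lay below all UIRI libraries, and the group means differed by several times the larger SD (636 ± 31.9 and 478 ± 6.64, SD, n = 3). The SD of 6.64 lies below the counting error of 376 to 464 reads per library and does not measure the spread between mice. The log2 fold change was -0.41 (SE 0.08, unadjusted p = 8.1e-04, adjusted p = 0.225 from limma), and DESeq2 gave an adjusted p of 0.0294. With each library left out it stayed between -0.45 and -0.38, and its adjusted p from limma was 0.0411 when UIRI replicate 3 was left out and 1.00 when UIRI replicate 1 was.

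Il18rap encodes the accessory chain without which IL-18 does not signal. It read 459, 416 and 473 in UIRI against 355, 358 and 356 with BA, a log2 fold change of -0.33 (SE 0.09, adjusted p = 0.312 from limma). The groups did not overlap, with an SD of 29.4 in UIRI and 1.51 in UIRI + BA. The smaller SD lies below the counting error of 283 to 341 reads per library, so it does not measure the spread between mice. Both chains of the IL-18 receptor were thus lower, at 0.752 and 0.792 times the UIRI mean.

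Il1r2 is a decoy receptor that takes up IL-1 without signaling and is known for its expression in neutrophils. It had the largest difference of the cluster, with 131, 102 and 121 in UIRI against 72.7, 79.7 and 80.3 with BA. The mean was 0.656 times that of UIRI, and the groups did not overlap (log2 fold change -0.60, SE 0.15, adjusted p = 0.291 from limma). Markers of neutrophils differed in the same direction. S100a8 was 270 ± 78.3 in UIRI and 154 ± 15.6 in UIRI + BA, and S100a9 was 324 ± 66.5 and 198 ± 0.677 (SD, n = 3), with log2 fold changes of -0.77 and -0.69. The SD of 0.677 is smaller than counting error alone would give.

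Il1rl2, the receptor of the IL-36 cytokines, read 734, 666 and 676 in UIRI against 527, 583 and 581 with BA. The groups did not overlap (log2 fold change -0.30, SE 0.09, adjusted p = 0.348 from limma). Il1r1, the signaling IL-1 receptor that lies between Il1r2 and Il1rl2, read 1376, 1369 and 1625 in UIRI against 1478, 1419 and 1305 with BA. These groups overlapped, and the log2 fold change was -0.05 (SE 0.09). Il1rl1, the IL-33 receptor ST2, read 504, 522 and 499 in UIRI against 511, 460 and 499 with BA, which overlapped as well (log2 fold change -0.05, SE 0.09). The seventh receptor, Il1rap on chromosome 16, encodes the accessory chain shared by the IL-1, IL-33 and IL-36 receptors, and its log2 fold change was -0.05 (SE 0.13). Within 500 kb on either side and between these genes, 9 other genes were measured. None of the 9 had an unadjusted p below 0.05, 3 were higher and 6 lower, and their median log2 fold change was -0.05. The nearest measured protein-coding neighbors, Map4k4 before and Slc9a4 behind the cluster, differed by -0.11 (SE 0.08) and -0.05 (SE 0.12) on the log2 scale.

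**Figure D3:**
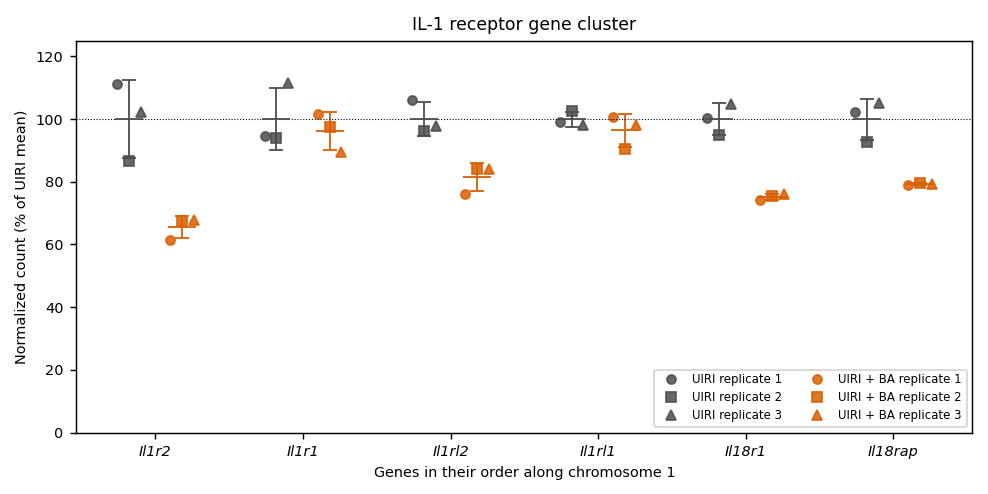
Normalized counts of the 6 IL-1 receptor genes of chromosome 1, in gene order, as percent of the UIRI mean, with each library as a point (grey, UIRI; orange, UIRI + BA; symbols mark the replicate) and mean with SD as bars. The groups are apart for Il1r2, Il1rl2, Il18r1 and Il18rap and overlap for Il1r1 and Il1rl1. The UIRI + BA bars of Il1r2, Il18r1 and Il18rap are shorter than counting error alone would give.

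Among IL-1 family ligands, Il33 combined the highest level with a small difference. It read 2683, 2906 and 2595 in UIRI against 2309, 2489 and 2203 with BA, without overlap (2728 ± 160 and 2333 ± 145, SD, n = 3). The log2 fold change was -0.23 (SE 0.08, unadjusted p = 0.0198, adjusted p = 0.424 from limma), and in 4 of the 6 fits without a library the unadjusted p was below 0.05. Il1a, an alarmin that signals through Il1r1, read 62.3, 37.1 and 48.2 in UIRI against 23.8, 40.9 and 25.0 with BA, on 19 to 88 reads. UIRI + BA replicate 2 lay above UIRI replicate 2, so the groups overlapped (log2 fold change -0.71, SE 0.28, adjusted p = 0.458 from limma), and 2 of the 6 fits without a library kept an unadjusted p below 0.05.

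Il1b, a cytokine released after cleavage in the inflammasome, read 552, 560 and 527 in UIRI against 392, 591 and 408 with BA. UIRI + BA replicate 2 had the highest value of all 6 libraries, whereas the other UIRI + BA libraries lay below all of UIRI. The log2 fold change was -0.26 (SE 0.15, unadjusted p = 0.115, adjusted p = 0.565 from limma, exact permutation p = 0.4), and -0.45 without UIRI + BA replicate 2 (unadjusted p = 0.00252, adjusted p = 0.410). Il1bos, annotated antisense to Il1b, had a log2 fold change of -0.11 (SE 0.27) on 117 reads. Whether strand was used in counting is not given in the sources used here, so reads of Il1b and Il1bos may be mixed. This limit also applies to other genes, since 22 of the 62 overlapped a gene on the other strand. Among these were Il1a, Il18, Il18bp, Il34 and Il17rb. Il1rn, the natural antagonist of the IL-1 receptor, read 582, 608 and 675 in UIRI against 524, 591 and 527 with BA. The groups overlapped (log2 fold change -0.18, SE 0.10, adjusted p = 0.537 from limma), and the mean levels per kb of Il1b and Il1rn were 265 and 106.

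Il18, the ligand of the Il18r1 and Il18rap chains, read 238, 271 and 179 in UIRI against 187, 179 and 184 with BA. UIRI replicate 3 lay apart from the other UIRI libraries, at the level of the UIRI + BA libraries (log2 fold change -0.30, SE 0.16, unadjusted p = 0.0862). Without it the log2 fold change of Il18 was -0.47, with an unadjusted p of 0.00372 and an adjusted p of 0.0584 (limma). In that fit 25.2% of all genes had an unadjusted p below 0.05 and 5.02% an adjusted one. Il18bp, which encodes the secreted protein that neutralizes IL-18, lay in the other direction, with 325, 303 and 286 in UIRI against 357, 359 and 296 with BA. Its groups overlapped (log2 fold change 0.14, SE 0.11, adjusted p = 0.664 from limma). The IL-36 ligand gene Il1f6 read 276, 297 and 302 in UIRI against 291, 290 and 212 with BA, and Il1f9, the gene of IL-36 gamma, had 14.9 ± 3.45 and 12.7 ± 2.32 (SD, n = 3), so neither differed beyond the spread.

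**Figure D4:**
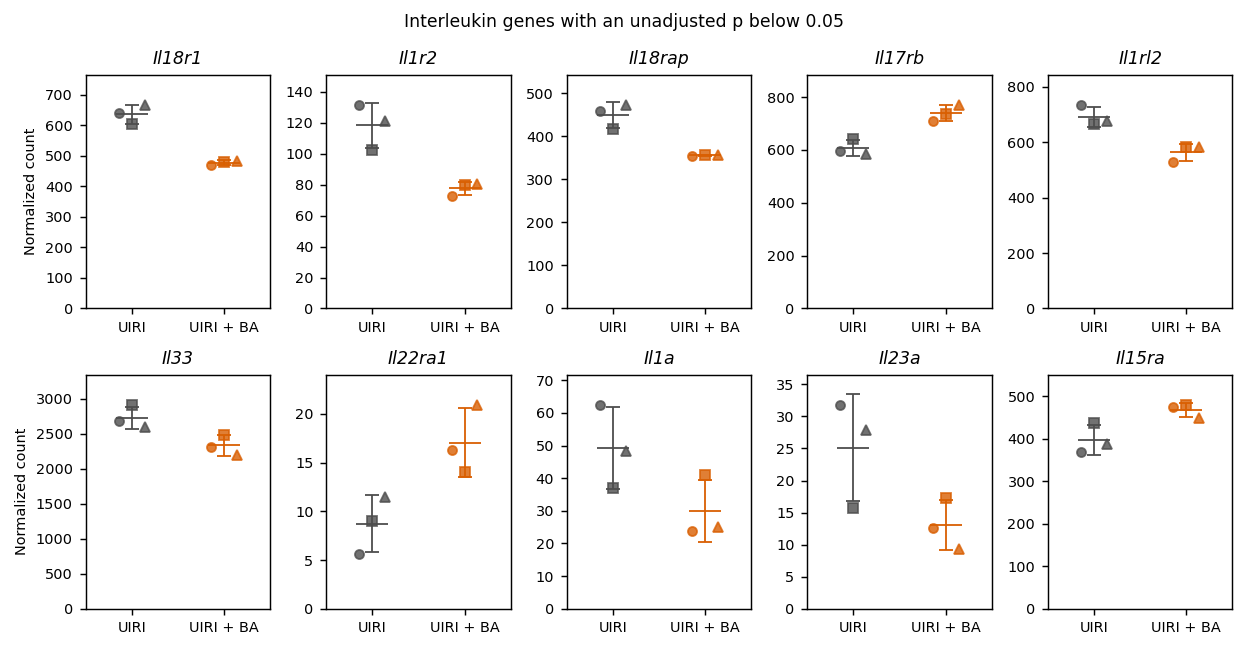
Normalized counts of the 10 interleukin genes with an unadjusted p below 0.05 (limma), ordered by p, with each library as a point (circle, square and triangle are replicates 1, 2 and 3) and mean with SD as bars, on axes that start at 0. The groups overlap in Il1a and Il23a and are apart in the other 8 genes.

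In the gp130 family the ligands were scarce and the shared chain abundant. Il6, its classic ligand, read 27.2, 16.9 and 62.4 in UIRI against 25.1, 16.2 and 37.6 with BA. UIRI replicate 3 was the highest in Il6, and the log2 fold change of -0.30 (SE 0.47) became 0.20 without it. Il11, a gp130 cytokine known for its action on fibroblasts and tubule cells, read 77, 58.5 and 72.8 in UIRI against 48.9, 50.6 and 57.4 with BA. The Il11 groups did not overlap, with a log2 fold change of -0.40 (SE 0.18, unadjusted p = 0.0572, adjusted p = 0.497 from limma), and fibroblast markers such as Col3a1 (-0.56) and Col1a1 (-0.32) were lower in the same libraries. The receptor chains Il6st (0.03, SE 0.09), Il6ra (0.0049, SE 0.09) and Il11ra1 (-0.20, SE 0.13) had small log2 fold changes with unadjusted p-values above 0.05. Il11ra1 has near-identical copies in the mouse genome, between which reads can be split, so its value is less certain.

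Of the IL-10 and IL-17 families, the genes at an unadjusted p below 0.05 were receptor chains that were higher with BA. Il17rb, a chain of the receptor for IL-25, read 597, 643 and 584 in UIRI against 712, 737 and 770 with BA. The groups did not overlap, and the mean was 1.22 times that of UIRI (log2 fold change 0.28, SE 0.08, adjusted p = 0.347 from limma). This held in each of the 6 fits without a library, where the log2 fold change ran from 0.25 to 0.32 with an unadjusted p of at most 0.0345. Il22ra1, the signaling chain of the IL-22 receptor on epithelial cells, had the largest positive log2 fold change of the receptors. It read 5.66, 9.0 and 11.5 in UIRI against 16.3, 14.0 and 20.9 with BA, without overlap, on 5 to 21 reads (log2 fold change 0.92, SE 0.35, adjusted p = 0.443 from limma). Its unadjusted p was below 0.05 in 3 of the 6 fits without a library, and DESeq2 gave an unadjusted p of 0.10. The partner chain Il10rb did not differ beyond the spread (log2 fold change -0.06, SE 0.07), nor did Il17ra (0.0040, SE 0.09) or Il17re (-0.06, SE 0.12). Il17rc, the partner of Il17ra, was at 475 ± 6.44 in UIRI and 442 ± 16.8 with BA (SD, n = 3), without overlap, and its log2 fold change of -0.11 (SE 0.08) had an unadjusted p of 0.245. The Il17rc SD of 6.44 in UIRI is smaller than counting error alone would give. Il17rd, a feedback inhibitor of FGF signaling, had a log2 fold change of 0.15 (SE 0.15). Il20rb read 229, 216 and 156 in UIRI against 132, 190 and 179 with BA, which overlapped. Il17d, the single IL-17 family ligand measured, had 39.3 ± 12.7 and 30.3 ± 9.44 (SD, n = 3).

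The receptors that share the common gamma chain, with those of IL-4 and IL-13, showed no common direction, since 4 of 9 were higher and 5 lower. Il15ra, which presents IL-15 to lymphocytes, read 368, 436 and 387 in UIRI against 474, 478 and 448 with BA. The groups did not overlap (log2 fold change 0.23, SE 0.10, unadjusted p = 0.0405, adjusted p = 0.472 from limma), but the unadjusted p was below 0.05 in only 1 of the 6 fits without a library. Il15 itself differed by 0.04 (SE 0.13) on the log2 scale. Il4ra, the chain that IL-4 and IL-13 share, read 1861, 1957 and 1474 in UIRI against 1510, 1722 and 1359 with BA, and overlapped (log2 fold change -0.20, SE 0.13). Its abundant partner Il13ra1 differed by 0.03 (SE 0.11), Il2rg by -0.01 (SE 0.16), Il7r by -0.17 (SE 0.14) and Il21r by -0.20 (SE 0.19). Il2ra, the high-affinity chain of the IL-2 receptor found on activated and regulatory T cells, was at 69.8 ± 2.16 in UIRI and 57.3 ± 6.23 in UIRI + BA (SD, n = 3), without overlap (log2 fold change -0.29, SE 0.17, adjusted p = 0.568 from limma). The SD of 2.16 is smaller than counting error alone would give. T cell markers were lower in 10 of 12, with summed levels of 3411 to 4254 in UIRI and 3150 to 3942 in UIRI + BA. Only 1 of the 12 (8.33%) had an unadjusted p below 0.05 (limma), below the 10.3% of all genes.

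Among the remaining genes, Il23a, the subunit that sets IL-23 apart from IL-12, read 31.7, 15.7 and 27.9 in UIRI against 12.5, 17.2 and 9.39 with BA on 9 to 51 reads. UIRI + BA replicate 2 lay above UIRI replicate 2 (log2 fold change -0.88, SE 0.35, adjusted p = 0.460 from limma). The unadjusted p of Il23a was below 0.05 in 2 of the 6 fits without a library and was 0.0543 with DESeq2. Its partner subunit Il12b, shared with IL-12, was at 44.0 ± 5.26 and 46.1 ± 3.61 (SD, n = 3). Il5ra, the alpha chain of the IL-5 receptor, read 377, 402 and 454 in UIRI against 476, 442 and 535 with BA, with overlap (log2 fold change 0.24, SE 0.11, unadjusted p = 0.0623). Il34 read 1524, 1610 and 1232 in UIRI against 1427, 1714 and 1641 with BA, and overlapped (log2 fold change 0.14, SE 0.12). Its receptor Csf1r, a macrophage gene, had 6443 ± 478 and 5724 ± 150 (SD, n = 3, log2 fold change -0.17, SE 0.08). Il16, a chemoattractant that binds CD4, had 509 ± 103 and 436 ± 45.6, and Il10ra 1831 ± 199 and 1684 ± 118 (SD, n = 3), both with overlap. The genes not named so far all had unadjusted p-values above 0.05, with log2 fold changes from -0.55 for Il2, the T cell growth factor (34 reads in all), to 0.21 for Il23r, the specific chain of the IL-23 receptor (64 reads in all). Il4i1, an amino acid oxidase induced by IL-4, had 9.16 ± 2.78 and 7.06 ± 2.34 (SD, n = 3). Groups without overlap were found in 3 of the 24 ligands, all lower with BA, and in 9 of the 35 receptors, of which 6 were lower and 3 higher. Of all genes 14.4% had groups that did not overlap, 6.96% lower and 7.45% higher.

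Genes that act with or after interleukins were counted from lists, beside the 10.3% of all genes with an unadjusted p below 0.05. Of 15 genes of IL-1 and IL-17 signaling, such as Myd88 (-0.14, SE 0.09) and Casp1 (-0.21, SE 0.12), none had an unadjusted p below 0.05, with 8 higher and 7 lower. The 11 JAK and STAT genes gave none either, with 5 higher and 6 lower (Stat3 0.10, SE 0.08). Of 13 inhibitors of these pathways 1 (7.69%) had such a p, below the share of all genes. It was Socs3, the feedback inhibitor that gp130 signaling induces, at 1830, 1843 and 2089 in UIRI against 1493, 1688 and 1177 with BA. The Socs3 groups did not overlap (log2 fold change -0.42, SE 0.13, adjusted p = 0.359 from limma). Of 18 partner chains and related ligands, 1 (5.56%) had an unadjusted p below 0.05, also below the share of all genes. This was Csf2rb2 of the IL-3 receptor (-0.27, SE 0.10), and 12 of the 18 were lower and 6 higher.

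Known target genes were counted in the same way, beside the 10.3% of all genes with an unadjusted p below 0.05. Of 13 acute phase genes that IL-6 is known to induce, 3 were lower (Lcn2, Hp and Timp1) and 1 higher (Fga) at an unadjusted p below 0.05. Lcn2, which encodes the tubule injury marker NGAL, read 5260, 4687 and 4507 in UIRI against 3137, 3469 and 3539 with BA (log2 fold change -0.51, SE 0.09, adjusted p = 0.225 from limma and 7.6e-04 from DESeq2). Of 10 injured tubule markers, however, 5 were higher and 5 lower, and 3 in each direction had an unadjusted p below 0.05. Of 12 genes that IL-4 and IL-13 are known to induce in macrophages, 11 were lower and 5 had an unadjusted p below 0.05, all lower: Ccl22 (-0.58), Clec7a (-0.53), Retnla (-0.67), Mrc1 (-0.23) and Clec10a (-0.30). Ccl22 read 383, 390 and 336 in UIRI against 247, 268 and 227 with BA, without overlap (adjusted p = 0.225 from limma and 0.0129 from DESeq2). The macrophage markers Cx3cr1 (-0.49) and Itgam (-0.32) were lower in the same comparison.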

How the data were processed

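Reads were filtered by the authors, who used HISAT2 (v2.0.5) for alignment, FeatureCounts for counts per gene and DESeq2 (v1.20.0) for their own tests. The genome build and annotation are not given in the sources used here. The deposited signal is the read count of a gene after division by the size factor of its library. Of these values, 100% were whole multiples of 1 read (tolerance 0.01). The rows held at least 10 reads over the 6 libraries. The same deposited table holds the authors' log2 fold change, p-value and adjusted p-value, and the other deposited tables hold the authors' enrichment results, none of which were used. Of columns with values per sample, 0 were left out.

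Groups came from the sample labels. Values were tested over all rows as log2 of the value plus 1 with limma 3.58.1 (R 4.3.3), with an intensity trend and no covariate, at a p of 0.05 before and after Benjamini-Hochberg adjustment. Recovered reads went into DESeq2 1.42.0 and edgeR 4.0.16. For single genes an exact permutation test (two-sided) was used (scipy 1.17.1), whose smallest p is 0.1 for 3 against 3. limma, edgeR and DESeq2 were also run on simulated data, with changes larger than most of those reported here. How they perform on smaller changes was not tested. Alternatives also included quantile normalization, scaling to the upper quartile, a pseudocount of 0.1, a filter on a mean of 5, a replicate block and each library left out. The study describes the 3 libraries of a group as independent biological replicates, and this number limits the precision.

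Members, gene lists and tests were chosen with earlier results of these data known. Named genes were those with an unadjusted p below 0.05, the 10 ligands and 12 receptors with the largest mean, the 5 largest rises and falls with a mean of at least 10, and ligands with their receptors fixed by name (Il1b, Il6, Il18 and others). Others, such as Il17re and Il20rb, were named after their values were seen. Lists covered signaling, partner chains, targets and markers of cell types. In the lists not described in the report, genes higher and lower with BA numbered 3 and 6 for NK cells and 3 and 0 for mast cells. They numbered 2 and 6 for B and plasma cells and 2 and 8 for endothelium. For thick limb and distal tubule they were 6 and 1, and for collecting duct 9 and 2. Positions, lengths and overlaps came from GENCODE release M21, which held all 62 symbols, 28 of them overlapping another gene. Promoters came from RefSeq (GRCm38.p6), with 48 of 62 symbols matched.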

Additional observations from a re-analysis of the deposited data

How the results depend on the processing

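Of the 62 genes, 39 kept their direction with each library left out and 23 did not, among them Il21r, Il2rg, Il2rb, Il12b, Il17re, Il23r and Il24. Of the 37 genes named by rule, recomputed under every alternative, 26 kept their direction and the log2 fold changes of 11 crossed 0: with quantile normalization Il13ra1 (-0.0077), Il17ra (-0.016) and Il6ra (-0.0071), with upper quartile scaling Il17ra (-0.018) and Il6ra (-0.017), and with single libraries left out Il10 (-0.30 to 0.084), Il13ra1 (-0.053 to 0.14), Il15 (-0.067 to 0.16), Il17ra (-0.083 to 0.074), Il1r1 (-0.096 to 0.028), Il1rap (-0.15 to 0.027), Il27 (-0.98 to 0.15), Il4 (-0.14 to 0.12), Il6 (-0.71 to 0.20), Il6ra (-0.070 to 0.078) and Il6st (-0.022 to 0.087). With single libraries left out, ligands at an unadjusted p below 0.05 numbered 0 to 4, receptors 5 to 13, and genes of the set at an adjusted p below 0.05 numbered 0 to 1, while 4.21% to 25.2% of all genes had such an unadjusted and 0% to 5.02% an adjusted p. DESeq2 also gave 1. The cause was not tested. The median of the ligands ran from -0.28 to -0.17 and that of the receptors from -0.13 (without UIRI + BA replicate 2) to -0.05. Replicate numbers are shared by the groups. Correlations of deviations at the same number were -0.24, 0.30 and 0.15, and only replicate 2 correlated less with every other number (at most -0.07). These 3 values cannot decide whether the libraries are paired. With a replicate block 3 ligands and 8 receptors had an unadjusted p below 0.05 (2106 of 19176 genes in all, 1971 without the block). An adjusted one was found for 0 genes of the set and 6 of the whole table. No scaling moved the median of all genes by more than 0.03. Few reads limit Il21, Il24, Il1f5, Il22ra1 and Il23a.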

Other observations

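Part of the spread in the interleukin receptors lay between libraries of a group. Of the 62 genes, 16 were lowest in replicate 3 of both groups and 5 were highest there, where 13.9% and 12.7% of all genes were. Among the 16 were 9 receptors, chosen after their values were seen, such as Il2rb, Il2rg and Il21r of lymphocytes. Il2rb, a chain of the IL-2 and IL-15 receptors, read 265, 255 and 225 in UIRI against 317, 308 and 170 with BA. Without UIRI + BA replicate 3 its log2 fold change of 0.04 became 0.33. Summed NK cell markers, 602 to 961 in UIRI and 572 to 851 with BA, were lowest in replicate 3 of each group as well, and so were summed T cell markers. Whether replicate numbers pair the libraries could not be decided, and the part of these markers in the receptor values was not tested.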
